A study of Homo sapiens with 2 samples.

Results

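A group of 10 receptor genes for islet hormones, prostaglandin, catecholamines and free fatty acids was followed across the cell types of stem cell-derived islet clusters. They were chosen by symbol in the gene annotation of the deposited count matrices, and all 10 of 10 were found among 33694 annotated genes. The genes were GLP1R, GIPR, GCGR, SSTR1, SSTR2, NPY1R, TSHR, ADRA2A, FFAR1 and PTGER3. The cells came from Mel1-INS-GFP, a human embryonic stem cell line with green fluorescent protein placed at the insulin gene. Its iSOX9KO derivative carries a doxycycline (DOX)-inducible Cas9 and 3 guide RNAs against SOX9 at the AAVS1 locus, and 1 clone was used. Both conditions shared this genotype, the differentiation to islet clusters and the sort for bright GFP followed by reaggregation. One culture received 2 ug/ml DOX from day 12 of differentiation on, and the other received none. Each condition was 1 droplet-based single-cell RNA library, so no difference between the conditions has a replicate check and no test was run. The 95% intervals given here cover counting error only.

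All 10 encode G protein-coupled receptors at the cell surface. Receptors for GLP-1, GIP, glucagon and thyroid-stimulating hormone couple mainly to Gs, which raises cyclic AMP, a signal that strengthens insulin release in beta cells. Somatostatin receptors, NPY1R, ADRA2A and PTGER3 couple mainly to Gi/o, which lowers cyclic AMP and restrains secretion. FFAR1 couples mainly to Gq and strengthens glucose-driven insulin release when long-chain fatty acids bind it.

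In GRCh38 with GENCODE release 44, the genes lie on 7 chromosomes and none overlaps another of the group. PTGER3 spans chr1:70852353-71047816, GLP1R chr6:39048781-39091303, GIPR chr19:45668221-45683722 and GCGR chr17:81804132-81814008. SSTR1 spans chr14:38207904-38213067, SSTR2 chr17:73165010-73176633, NPY1R chr4:163323962-163344832 and TSHR chr14:80954989-81146306. ADRA2A spans chr10:111077029-111080907 and FFAR1 chr19:35347902-35353864. Of these, 3 overlap a gene on the opposite strand that was also counted: PTGER3 with RP3-333A15.1 (8 UMIs without and 1 with the DOX label), NPY1R with NPY5R (237 and 225 UMIs) and TSHR with CEP128 (337 and 323 UMIs). A UMI, or unique molecular identifier, marks 1 captured RNA molecule. Overlap was judged on whole gene spans, not on exons. Strand use in counting is not given in the sources used here, so whether reads in such an overlap were told apart is not known.

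RefSeq sequence upstream of the start (GRCh38.p14, 250 bases) was at hand for 9 of the 10 receptors, all but PTGER3. The 3 promoters below are shown because they belong to the receptors that were high in the progenitor-like cells and hold the E-box CACGTG, a palindrome read by basic helix-loop-helix factors, printed in capitals. The sequences run 5′ to 3′ toward the gene's start, SSTR1 from chr14:38207654-38207903 on the plus strand, NPY1R from chr4:163332597-163332795 on the minus strand (199 bases, stopping where another transcript's exon begins, counted from RefSeq's start, which lies inside the longer GENCODE span given above) and ADRA2A from chr10:111076779-111077028 on the plus strand.
SSTR1: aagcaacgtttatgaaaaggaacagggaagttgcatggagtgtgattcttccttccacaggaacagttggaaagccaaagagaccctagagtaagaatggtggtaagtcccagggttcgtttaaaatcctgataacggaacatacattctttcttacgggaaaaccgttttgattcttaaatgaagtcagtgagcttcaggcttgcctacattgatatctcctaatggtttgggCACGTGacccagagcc
NPY1R: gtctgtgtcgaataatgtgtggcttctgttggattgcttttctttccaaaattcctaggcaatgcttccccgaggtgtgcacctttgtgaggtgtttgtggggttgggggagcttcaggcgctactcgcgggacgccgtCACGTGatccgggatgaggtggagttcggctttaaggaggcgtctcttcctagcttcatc
ADRA2A: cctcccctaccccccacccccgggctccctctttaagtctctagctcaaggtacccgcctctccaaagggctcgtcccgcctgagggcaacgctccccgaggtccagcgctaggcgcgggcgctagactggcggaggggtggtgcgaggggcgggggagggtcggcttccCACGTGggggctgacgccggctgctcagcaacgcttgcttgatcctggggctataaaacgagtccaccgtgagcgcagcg
The E-box began 16 bases before the RefSeq start in SSTR1, 60 in NPY1R and 80 in ADRA2A. It was absent from the windows of SSTR2 and TSHR, which were also high in the progenitor-like cells. The TSHR window also lies inside its GENCODE span, with 190 of its 250 bases in exons of other transcripts. Of the 9 receptors 3 held CACGTG, against 6.34% of all 35107 promoters in the table, but the motif was picked after these sequences had been seen. The cyclic AMP response element TGACGTCA was in 0 of 9, against 1.65% of all promoters. Its shorter core TGACG, searched on both strands and contained in the full element, was in 4 of 9 (SSTR2, NPY1R, ADRA2A and FFAR1), against 21.2%. These matches describe letters in a window, not binding.

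Barcodes numbered 30288 in the library labelled no DOX, at a median of 15991 UMIs, and 31817 in the library labelled DOX, at a median of 14431. After barcodes under 1000 UMIs and predicted doublets (26.6% and 26.5%) were removed, 21808 and 23118 cells remained. The libraries shared 369 barcode sequences, of which 205 and 198 remained. Cells were clustered without the 10 receptors and classes were named from marker genes, which gave 331 duct-like, 817 proliferating progenitor-like, 4573 delta-like, 9322 alpha-like, 10565 beta cell progenitor-like and 16989 beta-like cells. Alpha-like cells numbered 5116 and 4206 and delta-like cells 2633 and 1940 in the libraries without and with the DOX label. The study reports more alpha- and delta-like cells with DOX, the reverse of these counts by label. The remaining 2329 cells were shallow, with more than 50% of their UMIs mitochondrial (55.8% and 50.9%), and were left unnamed. Every level is given in UMIs of the gene per 1000000 UMIs of the class (CPM), first in the library labelled no DOX and then in the library labelled DOX. INS stood at 194779 and 193870 CPM in beta-like cells but also at 147940 and 118403 CPM in alpha-like cells, so in these GFP-sorted clusters the alpha-like cells were not free of INS RNA. GCG stood at 19074 and 24132 CPM in alpha-like cells and SST at 221000 and 216785 CPM in delta-like cells. RNA of the targeted gene was not lower with the DOX label. SOX9 was at 2.998 and 3.778 CPM over all cells, a log2 ratio of DOX over no DOX of 0.33 (95% interval 0.21 to 0.46), and over the endocrine classes the log2 ratio was -0.06 (-0.30 to 0.18). Duct-like cells, 153 and 178 in number, held 641 of 946 and 862 of 1147 SOX9 UMIs, and within them the log2 ratio was 0.16 (0.01 to 0.31). Whether the SOX9 gene was cut in these cells was not tested, and the conditions are therefore given as library labels throughout. The study measured SOX9 loss as protein and gene cutting by an enzyme assay, both outside these libraries. RNA counts alone therefore do not decide it.

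The 3 receptors of the glucagon family, which hormones of alpha cells and of the gut activate, stood at low levels and in different classes. GLP1R, the receptor of the incretin GLP-1, was counted at 5.00 and 4.15 CPM in beta-like cells and at 5.49 and 4.25 CPM in progenitor-like cells. These classes were not apart, because their intervals overlapped, and they held 63.1% and 29.2% of all GLP1R UMIs. Among the 4 endocrine classes GLP1R was lowest in alpha-like cells, at 0.467 and 0.359 CPM from 32 and 19 UMIs. GIPR, the receptor of the incretin GIP, was the most evenly spread of the 10 in its share of UMIs, with 36.8% in beta-like and 33.6% in progenitor-like cells. Among the named classes its level per UMI of the class was highest in progenitor-like cells (27.7 and 24.2 CPM) and next in delta-like cells (17.7 and 17.7 CPM). Alpha-like (12.9 and 11.8 CPM) and beta-like cells (12.2 and 12.2 CPM) were not apart. GCGR, which binds glucagon, was sparse. It was at 1.58 and 2.12 CPM in beta-like cells and 1.66 and 1.53 CPM in delta-like cells, not apart, and at 0.321 and 0.435 CPM in the glucagon-making alpha-like cells. No GCGR UMI was found in duct-like cells, where the upper limit of the interval was 1.46 and 1.21 CPM.

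**Figure D1:**
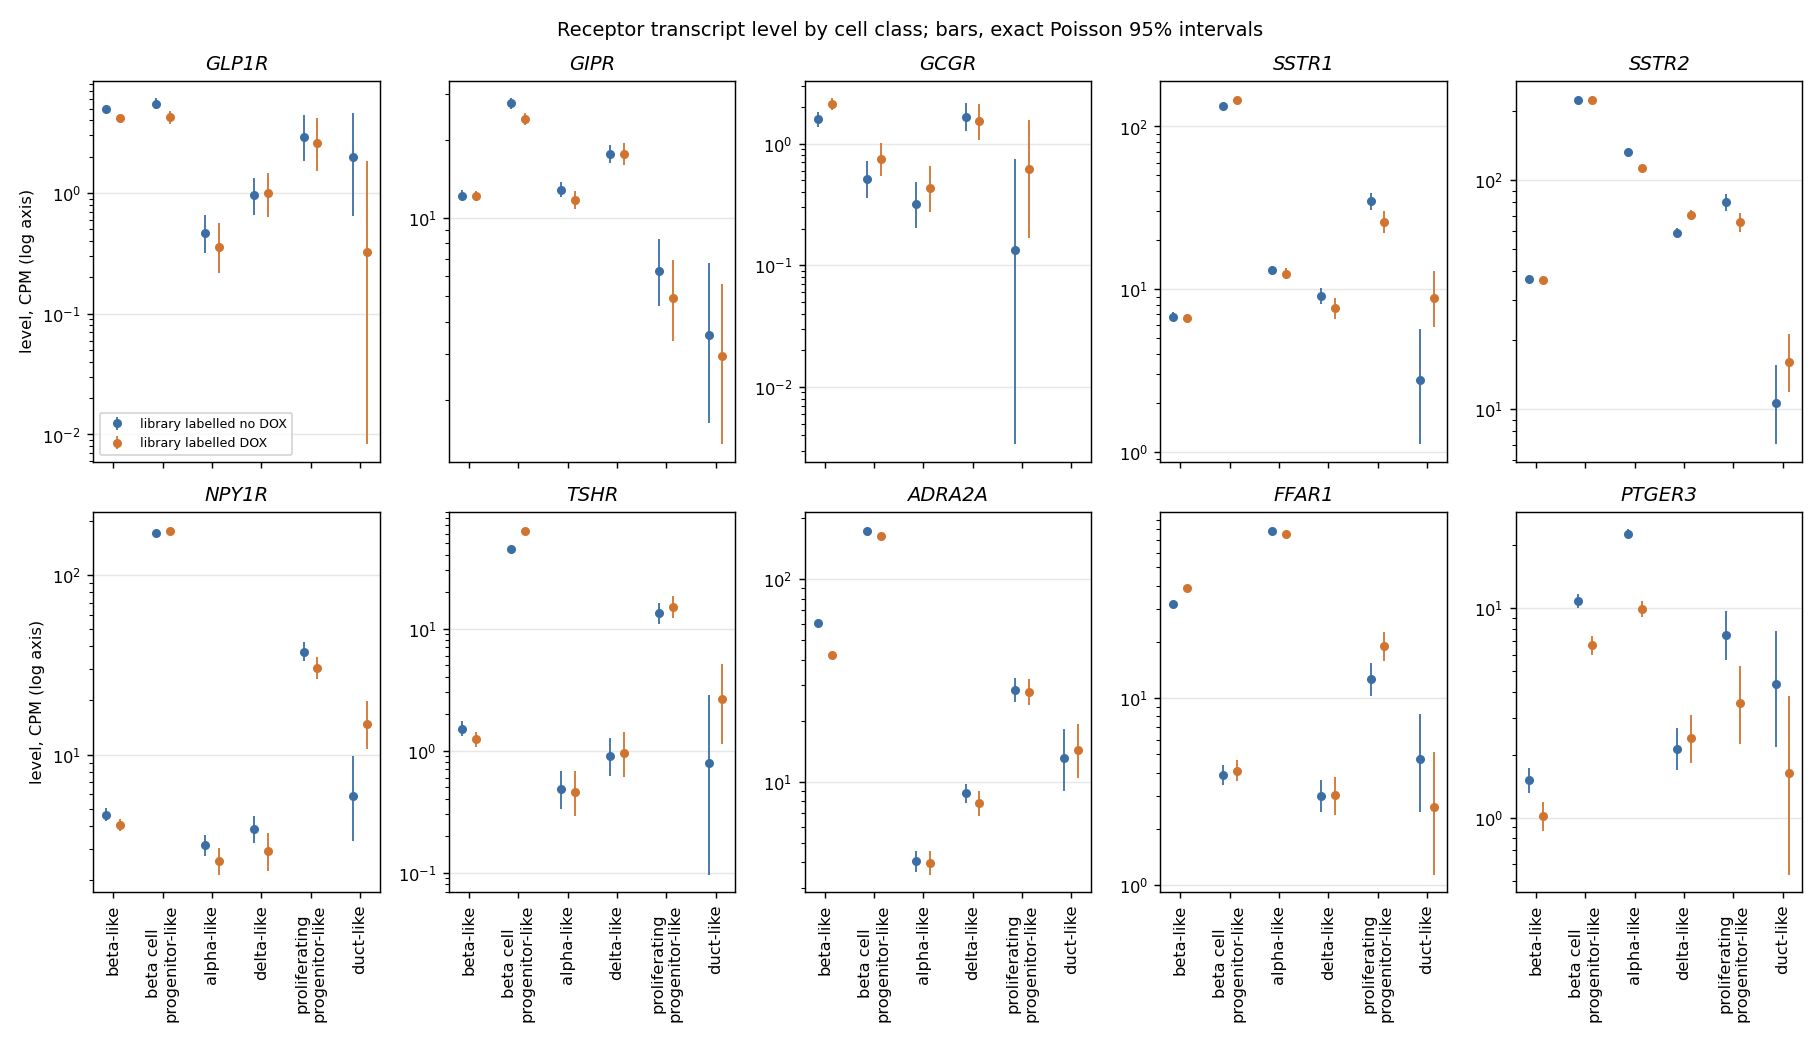
Level of each receptor in CPM (log axis, a separate scale for each gene) in 6 cell classes of the library labelled no DOX (blue) and the library labelled DOX (orange); bars are exact Poisson 95% intervals and a class with no UMI has no point. SSTR1, SSTR2, NPY1R, TSHR and ADRA2A stood highest in beta cell progenitor-like cells, FFAR1 and PTGER3 in alpha-like cells, and the highest class was the same in both libraries for every receptor but GCGR.

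Both somatostatin receptors were highest in progenitor-like cells. SSTR1 was at 133 and 146 CPM there, then at 34.6 and 26.0 CPM in proliferating progenitor-like cells, 13.1 and 12.4 CPM in alpha-like cells, 9.08 and 7.65 CPM in delta-like cells and 6.78 and 6.63 CPM in beta-like cells. SSTR2 was spread more widely. It was at 224 and 223 CPM in progenitor-like cells, 133 and 113 CPM in alpha-like cells, 79.8 and 65.6 CPM in proliferating progenitor-like cells, 58.9 and 70.4 CPM in delta-like cells and 37.1 and 36.6 CPM in beta-like cells. Progenitor-like cells held 79.0% of SSTR1 UMIs but 47.2% of SSTR2 UMIs, and alpha-like cells held a further 25.7% of those of SSTR2.

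NPY1R, a receptor of neuropeptide Y and peptide YY, and TSHR, the thyroid-stimulating hormone receptor, were the most concentrated. NPY1R was at 169.8 and 176 CPM in progenitor-like cells and at 2.55 to 4.64 CPM in beta-like, alpha-like and delta-like cells. TSHR was at 44.9 and 63.1 CPM in progenitor-like cells and at 0.454 to 1.52 CPM in those 3 classes. Progenitor-like cells held 89.7% of the UMIs of NPY1R and 89.9% of those of TSHR. Proliferating progenitor-like cells, named from markers of division, had intermediate pooled levels of both (37.4 and 30.4 CPM of NPY1R, 13.3 and 15.1 CPM of TSHR). No NPY1R UMI was found in 303 of 415 and 307 of 402 of these cells, so the pooled level need not be that of single cells.

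ADRA2A, the alpha-2A adrenergic receptor through which catecholamines curb insulin release, was counted in progenitor-like cells at 173 and 163 CPM and in beta-like cells at 60.4 and 42.3 CPM. It stood at 8.77 and 7.85 CPM in delta-like and 4.07 and 3.99 CPM in alpha-like cells. FFAR1 had the reverse order between alpha-like and progenitor-like cells. It was at 78.0 and 75.1 CPM in alpha-like and 32.1 and 38.9 CPM in beta-like cells, and at 3.87 and 4.10 CPM in progenitor-like cells. PTGER3, the EP3 receptor of prostaglandin E2, was at 22.8 and 9.94 CPM in alpha-like cells, 10.9 and 6.66 CPM in progenitor-like cells, and 1.51 and 1.02 CPM in beta-like cells.

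Set against the other endocrine classes together, 5 receptors were more than 2-fold higher in progenitor-like cells in both libraries, where 19.9% of the genes compared were. They were NPY1R (log2 5.38 and 5.61), TSHR (5.32 and 5.93), SSTR1 (3.90 and 4.18), ADRA2A (2.25 and 2.44) and SSTR2 (1.72 and 1.96). GCGR and FFAR1 were more than 2-fold lower there, where 5.58% of genes were. In alpha-like cells 2 were higher (PTGER3, log2 2.42 and 1.98, and FFAR1, 1.99 and 1.48; background 4.87%) and 6 lower (background 8.77%). In beta-like cells 1 was higher (GCGR, 1.23 and 1.47; background 2.95%) and 5 were lower (background 11.2%). In delta-like cells none was higher (background 3.38%) and 6 were lower (background 9.46%). Just outside the fold were GIPR in progenitor-like cells (1.06 and 0.93) and GLP1R in beta-like cells (0.99 and 0.96). Classes and levels come from the same cells, so these values describe the classes and are no test. The study had already listed PTGER3 and FFAR1 as alpha cell markers, GLP1R as a marker of a beta cell subset and NPY1R, SSTR1, TSHR and ADRA2A as progenitor markers from these same libraries, so their pattern is not independent evidence.

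Shares of cells were compared at an equal depth of 5000 UMIs per cell, with shallower cells left out (4500 of 5116 and 3712 of 4206 alpha-like, 5058 of 5271 and 5138 of 5294 progenitor-like and 6693 of 7069 and 9609 of 9920 beta-like cells were deep enough). At this depth most progenitor-like cells had a UMI of SSTR2 (60.9% and 59.7%), and NPY1R was seen in 49.7% and 50.6%, ADRA2A in 45.4% and 42.3%, SSTR1 in 40.9% and 43.1%, and TSHR in 19.1% and 23.8%. Without thinning the shares were 81.6% and 77.5% for SSTR2 and 69.2% and 68.7% for NPY1R. In duct-like cells, used here as a comparison for free RNA although both genes passed the second limit below in the library labelled DOX, the thinned shares were 4.76% and 9.04% for SSTR2 and 2.72% and 6.21% for NPY1R. FFAR1 was in 32.1% and 30.4% of alpha-like and 14.7% and 17.5% of beta-like cells, against 3.40% and 1.13% of duct-like cells. GLP1R was in 2.47% and 1.93% of beta-like cells, against 2.04% and 0% of 147 and 177 duct-like cells, whose intervals reached 5.85% and 2.06%. GCGR was in 0.941% and 1.11% of beta-like cells and in 0% of duct-like cells, with interval limits of 2.48% and 2.06%, so at this depth the shares of GLP1R and GCGR in beta-like cells were within the wide counting error of those few duct-like cells. Median depth was 17984 and 14753 UMIs in beta-like, 10773 and 9449 in progenitor-like and 14203 and 14704.5 in duct-like cells. A second limit, the share of the library's level that INS reached in duct-like cells (13.2% and 10.4%), was taken as passed only where the lower end of a level's interval lay above it. By this rule it was passed in neither library by NPY1R and TSHR in beta-like, delta-like and alpha-like cells, by GLP1R and ADRA2A in alpha-like cells, by FFAR1 in progenitor-like, delta-like and duct-like cells, or by GIPR, GCGR and TSHR in duct-like cells. These levels could not be told from free RNA beyond counting error, although some lay above the limit themselves, such as GIPR in duct-like cells (3.55 and 2.95 CPM, limits 2.14 and 1.53). GLP1R and GCGR in beta-like cells passed this second limit in both libraries, with limits of 0.470 and 0.327 CPM for GLP1R and of 0.140 and 0.152 CPM for GCGR.

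**Figure D2:**
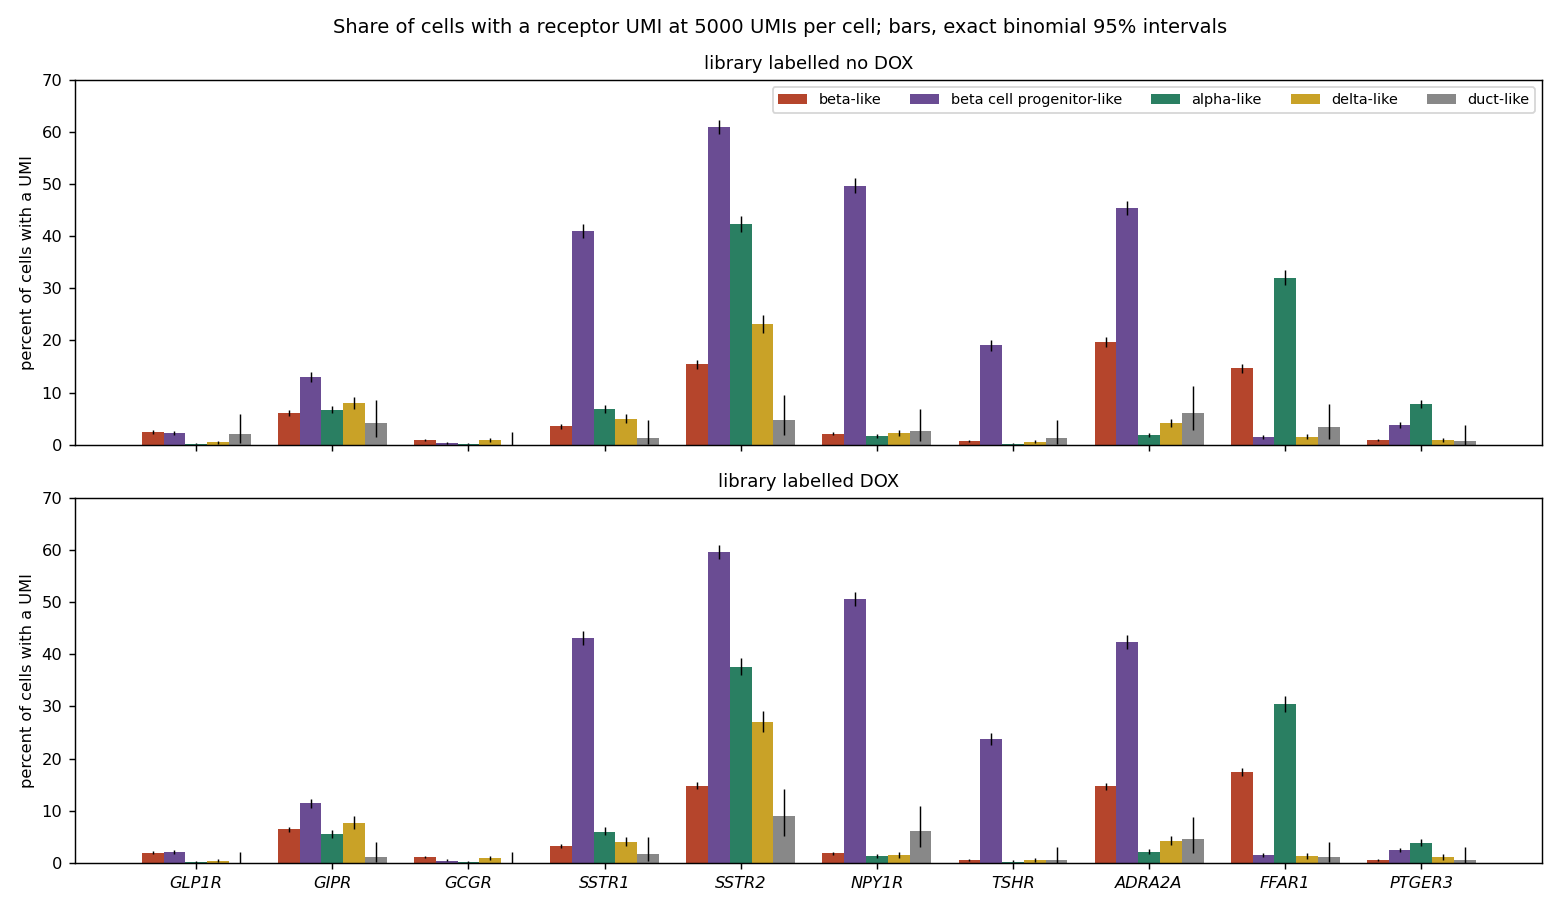
Percent of cells with at least 1 UMI of each receptor among cells with at least 5000 UMIs, each thinned to 5000, by cell class, in the library labelled no DOX (top) and the library labelled DOX (bottom); bars are exact binomial 95% intervals. SSTR2 reached 60.9% and 59.7% of beta cell progenitor-like cells and FFAR1 32.1% and 30.4% of alpha-like cells, while GLP1R and GCGR stayed at or under 2.47% in every endocrine class.

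Receptors were also set against each other in single progenitor-like cells at this depth. NPY1R was found in 58.6% and 57.9% of cells with a SSTR1 UMI and in 43.5% and 45.0% of cells without one. SSTR2 was found in 65.6% and 66.4% of cells with an ADRA2A UMI and in 57.1% and 54.8% of those without. TSHR ran the other way, in 16.9% and 20.3% of cells with and 20.9% and 26.4% of cells without an ADRA2A UMI. The cells of a library share its preparation, so these shares are a description.

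Finer clustering separated the receptors inside the beta-like class. Beta-1-type cells, led by MFAP4 and MXRA8 (2770 and 4514 cells), were set over Beta-2-type cells, led by NEFL and WSCD2 (2841 and 3349 cells). A further cluster led by MT1B and MT1M (1357 and 1981 cells) was left unnamed and entered neither side. GLP1R was at 3.18 and 2.89 CPM in Beta-1-type and 7.57 and 6.61 CPM in Beta-2-type cells, a log2 ratio of -1.25 (-1.52 to -0.98) and -1.20 (-1.45 to -0.94). GCGR had the reverse arrangement, at 2.53 and 3.03 against 1.02 and 1.10 CPM (log2 1.31, 0.84 to 1.80, and 1.46, 1.05 to 1.90). SSTR2 (20.5 and 20.9 against 63.8 and 58.3 CPM) and NPY1R (2.32 and 2.52 against 9.55 and 7.32 CPM) were lower in Beta-1-type cells. FFAR1 was at 46.6 and 51.5 against 25.9 and 31.1 CPM. In 8 alternative clusterings the log2 ratio of NPY1R ran from -3.31 to -0.093, the value nearest 0 coming with no minimum of UMIs in the library labelled DOX, and over the beta-like class as a whole NPY1R did not exceed the limit for free RNA given above beyond counting error. Those of GLP1R ran from -1.54 to -0.94, of GCGR from 0.88 to 2.23, of SSTR2 from -2.15 to -1.19 and of FFAR1 from 0.17 to 1.16. ADRA2A was at 98.4 and 58.1 against 39.9 and 34.5 CPM (log2 1.30 and 0.75), but its log2 ratio in the library labelled DOX turned to -0.096 when cells over 20% mitochondrial UMIs were left out. Past 2-fold in both libraries were 1 receptor higher (background 2.56%) and 3 lower (background 4.92%), and the higher count was 0 when doublets were kept or when the receptors entered the clustering.

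The progenitor-like class held a small cluster led by CA2 and PHOX2A (342 and 556 cells) beside a main cluster led by ADGRG4 and MGLL (4764 and 4667 cells). TSHR was at 109 and 123 CPM in the small cluster against 42.2 and 58.1 CPM in the main one (log2 1.37, 1.21 to 1.54, and 1.08, 0.95 to 1.21), with a range of 0.58 to 1.42 over the alternative clusterings. ADRA2A differed most and the other way, at 27.0 and 22.1 against 183 and 177 CPM (log2 -2.76, -3.08 to -2.45, and -3.00, -3.30 to -2.72), with a range of -3.13 to -2.04 over the alternative clusterings. NPY1R was moderately higher in the small cluster, at 236 and 221 against 169 and 173 CPM. SSTR2 was lower, at 108 and 135 against 229.7 and 232 CPM. PTGER3 was at 2.86 and 1.72 against 10.4 and 7.09 CPM, and GCGR at 2.54 and 2.79 against 0.396 and 0.579 CPM, but the small cluster held only 9 and 8 UMIs of PTGER3 and 8 and 13 of GCGR. Past 2-fold in both libraries were 2 higher (background 4.81%) and 2 lower (background 6.39%), with 1 higher under 5 of the alternative clusterings, in each of which TSHR fell short of 2-fold in at least 1 library. The alpha-like class also split. PTGER3 was at 24.2 and 10.4 CPM in the larger cluster, which had GAST among its leading genes, and at 4.05 and 0 CPM (11 and 0 UMIs) in the smaller one led by GPC5-AS1 and GCG, where SSTR2 was at 42.0 and 53.4 CPM against 137 and 116 CPM.

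**Figure D3:**
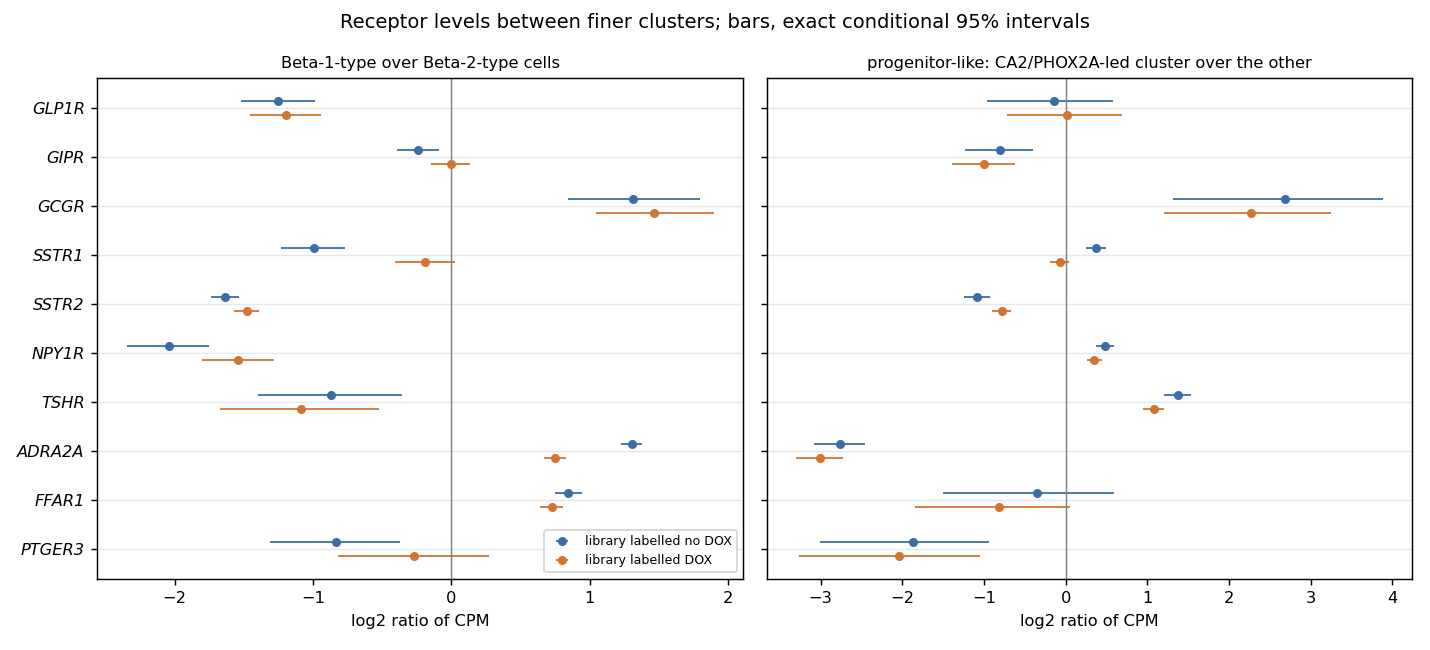
Log2 ratio of CPM of each receptor between Beta-1-type and Beta-2-type cells (left) and between the progenitor-like cluster led by CA2 and PHOX2A and the main progenitor-like cluster (right), for the library labelled no DOX (blue) and the library labelled DOX (orange); bars are exact conditional 95% intervals. GCGR stood to the right and GLP1R, SSTR2 and NPY1R to the left of 0 in the Beta-1-type comparison, and ADRA2A stood near -3 in the progenitor-like comparison (-2.76 and -3.00).

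Between the libraries, 1 receptor passed a log2 ratio of 0.5. In the library labelled no DOX, PTGER3 had 2632 UMIs, or 8.34 CPM. The library labelled DOX held 1157 UMIs of it, or 3.81 CPM, a level 2.19-fold lower (log2 -1.13, -1.23 to -1.03). Of 13841 genes compared, 1.12% were lower and 0.874% higher past that ratio, and the median log2 ratio was -0.12 over the receptors and -0.01 over all genes. The study had already reported PTGER3 from these same libraries, as higher with treatment, the reverse of its direction by label here. A difference in PTGER3 was therefore known beforehand, and its passing is not independent evidence. Whether the labels match the treatments was not tested. PTGER3 was lower in alpha-like (log2 -1.19, -1.34 to -1.05), progenitor-like (-0.71, -0.89 to -0.53) and beta-like cells (-0.57, -0.88 to -0.26). In delta-like cells its interval held 0 (0.17, -0.35 to 0.68), and the ratio ran from -0.43 with doublets kept to 0.17 over 8 alternatives. In beta-like cells PTGER3 stood at 1.51 and 1.02 CPM, against limits for free RNA of 1.10 and 0.395 CPM. These limits were also lower with the DOX label, and the part of free RNA in the beta-like ratio was not tested. Alpha-like cells accounted for 70.9% of the CPM difference and progenitor-like cells for 22.5%. These parts also hold differences in class size, with 5116 and 4206 alpha-like cells. Within the alpha-like class, 3 epsilon cell markers (GHRL, ACSL1 and ANXA13) summed to 101 and 42.6 CPM. The 3 gamma cell markers PPY, AQP3 and ETV1 summed to 665 and 877 CPM. PPY alone was at 165 and 382 CPM there, so AQP3 and ETV1 together were not higher with the DOX label. The part of such makeup in the PTGER3 difference was not tested. With SOX9 not lower under DOX, this direction belongs to the library label. The heat-shock genes HSPA1A (log2 -1.80) and HSPA1B (-1.51) were also lower in the library labelled DOX, and their part in the PTGER3 difference was not tested.

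The other 9 receptors were within a log2 ratio of 0.5, and the direction is again that of the label. GCGR was highest at 0.47 (0.26 to 0.68), from 333 and 444 UMIs. TSHR was at 0.31 (0.24 to 0.37) and at 0.49 (0.42 to 0.56) within progenitor-like cells. ADRA2A was at -0.23 (-0.26 to -0.20), with -0.51 (-0.56 to -0.47) in beta-like cells and -0.09 (-0.13 to -0.05) in progenitor-like cells. Within the beta-like class, ADRA2A was at 98.4 and 58.1 CPM in Beta-1-type cells (log2 -0.76, -0.82 to -0.70) and at 39.9 and 34.5 CPM in Beta-2-type cells (-0.21, -0.30 to -0.12). The unnamed finer cluster led by MT1B and MT1M had ADRA2A at -0.62 (-0.76 to -0.48), FFAR1 at 0.55 and SSTR2 at 0.46. GCGR there was at 1.08 (0.41 to 1.79, from 27 and 63 UMIs), while its intervals in Beta-1-type and Beta-2-type cells held 0. FFAR1 was at 0.12 (0.08 to 0.16) and at 0.28 (0.22 to 0.34) in beta-like cells. SSTR2 (-0.18), GLP1R (-0.17), GIPR (-0.13), NPY1R (-0.10) and SSTR1 (-0.05) lay below 0, and their intervals did not hold 0. By class, the SSTR2 intervals held 0 in progenitor-like (-0.003) and beta-like cells (-0.02). SSTR2 lay below 0 in alpha-like (-0.24) and above 0 in delta-like cells (0.26). GLP1R was at -0.27 (-0.43 to -0.11) in beta-like and -0.37 (-0.61 to -0.13) in progenitor-like cells. Its intervals held 0 in alpha-like and delta-like cells, and also in Beta-1-type (-0.14) and Beta-2-type cells (-0.20). GIPR lay below 0 in progenitor-like cells (-0.20), and its intervals held 0 in beta-like, alpha-like and delta-like cells. In progenitor-like cells, however, SSTR1 (0.13, 0.09 to 0.17) and NPY1R (0.051, 0.01 to 0.09) lay above 0, and both also turned positive over all cells with every class weighted equally. With 1 library per condition, such intervals do not cover differences between cultures.

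**Figure D4:**
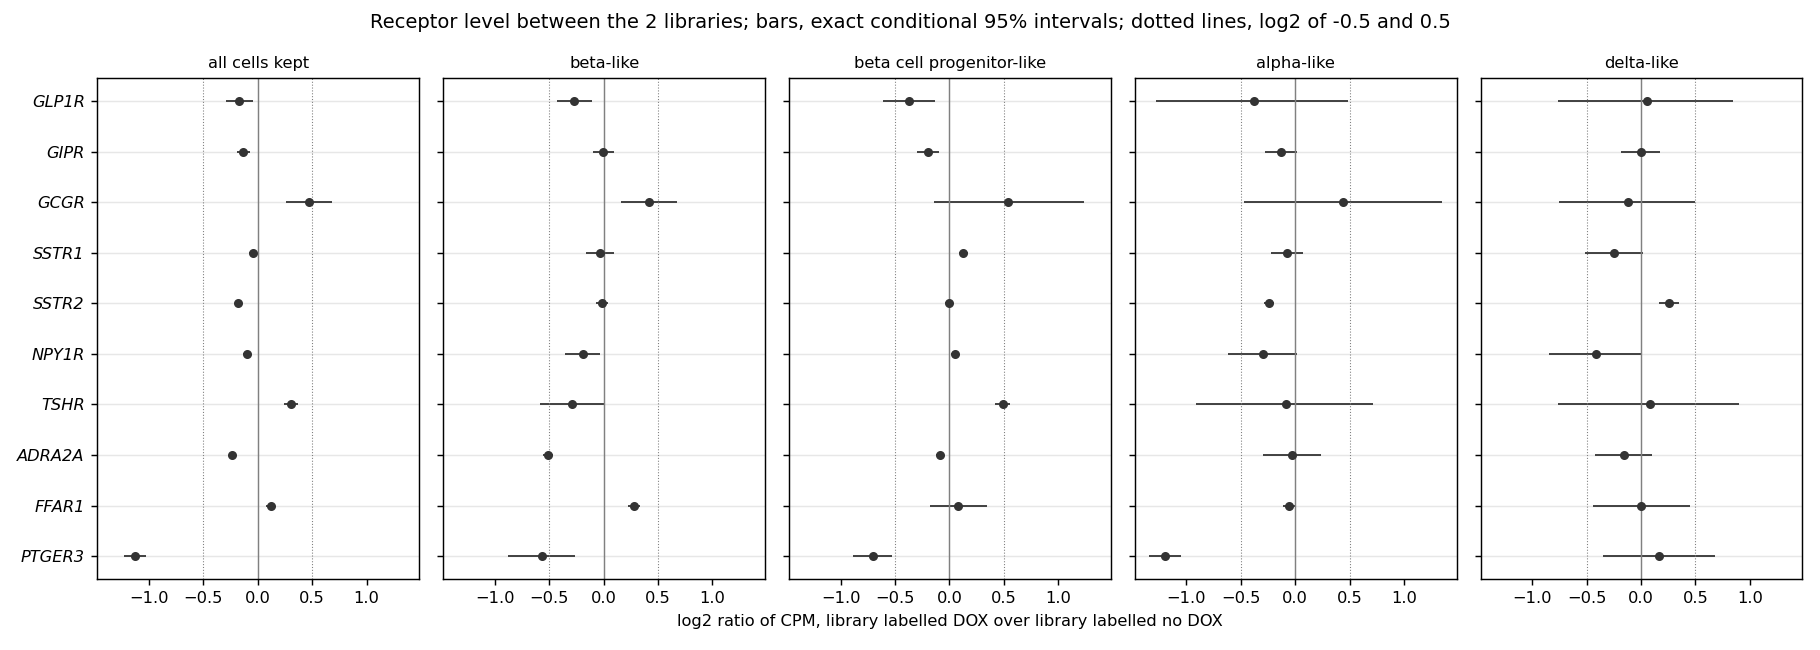
Log2 ratio of CPM of each receptor in the library labelled DOX over the library labelled no DOX, over all cells and within 4 endocrine classes; bars are exact conditional 95% intervals for counting error and dotted lines mark -0.5 and 0.5. PTGER3 stood at -1.13 over all cells and -1.19 in alpha-like cells, and the other 9 receptors stayed between the dotted lines over all cells.

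PTGER3 UMIs were clumped in few alpha-like cells. At least 3 UMIs were found in 163 of 5116 cells (3.19%, 2.72 to 3.70) of the library labelled no DOX and in 45 of 4206 (1.07%) of the library labelled DOX. These cells held 60.3% and 39.2% of the class's PTGER3 UMIs. They supplied 13.7 and 3.89 CPM of the level, and the remaining cells supplied 9.04 and 6.05 CPM. After thinning, variance over mean of the UMIs per cell was 2.84 and 1.76 for PTGER3, against 1.15 and 1.16 for FFAR1 in the same class. It was 1.78 and 1.65 for SSTR2 in that class and 2.05 and 2.07 for ADRA2A in progenitor-like cells, so clumping was not particular to PTGER3. The PTGER3-rich cells were compared with the 4456 and 3889 alpha-like cells without a PTGER3 UMI, whose median depth was similar (13213 against 13200.5 UMIs, and 12764 against 12353). The genes named next were chosen after their values were seen. LYZ, which encodes lysozyme, was at 663 and 374 CPM against 31.3 and 6.16 CPM. TPH1 and DDC, 2 enzymes of serotonin synthesis, were at 960.0 and 429.8 against 90.8 and 45.0 CPM and at 342 and 188 against 81.8 and 55.3 CPM. PPY, the pancreatic polypeptide gene, went the other way, at 33.0 and 50.7 against 183 and 389.9 CPM, and so did AQP3, at 43.2 and 37.6 against 153 and 165 CPM. GCG was at 9009.5 and 21337 against 19378 and 24004 CPM. TPH1 is also a marker of the progenitor-like class, where it was at 2189 and 2202 CPM, and the share of mixed or intermediate cells among the PTGER3-rich ones was not tested. Over the whole alpha-like class LYZ was at 60.0 and 19.5 CPM and TPH1 at 139 and 57.1 CPM. SSTR2 was seen in 56.6% and 48.3% of thinned alpha-like cells with and 41.1% and 37.2% without a PTGER3 UMI, and FFAR1 in 26.1% and 22.1% with and 32.6% and 30.8% without.

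**Figure D5:**
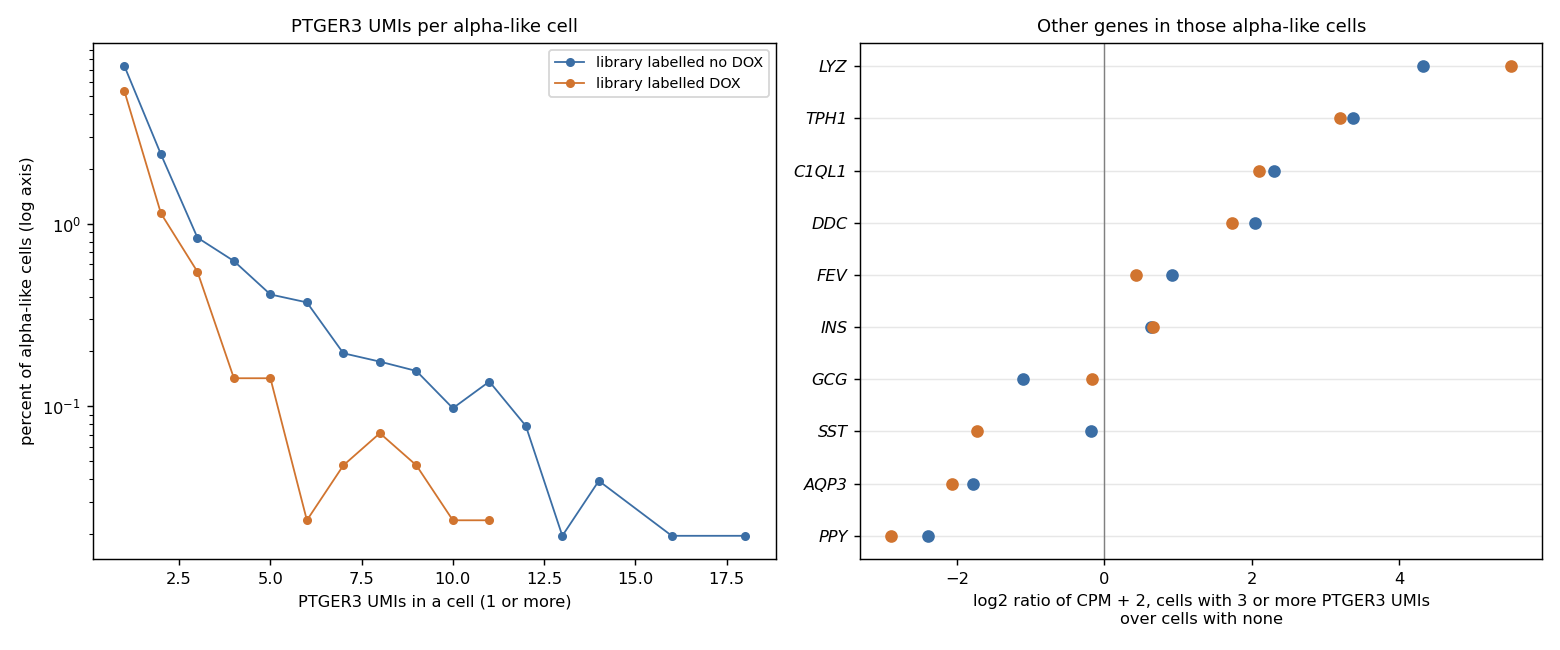
Left, percent of alpha-like cells (log axis) with each number of PTGER3 UMIs, for the library labelled no DOX (blue) and the library labelled DOX (orange); numbers of UMIs found in no cell are not drawn. Right, log2 ratio of CPM + 2 between alpha-like cells with 3 or more PTGER3 UMIs and those with none; LYZ, TPH1, C1QL1 and DDC stood to the right of 0 and PPY and AQP3 to the left in both libraries.

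The ligands of these receptors were counted in the same clusters. Of 11 ligand genes 8 were compared, with 1 higher (PPY, log2 0.85) and 1 lower (CGA, -0.62) in the library labelled DOX, beside 0.874% higher and 1.12% lower of all genes compared. PPY was at 165 and 382 CPM and PYY, peptide YY, at 2804 and 3022 CPM in alpha-like cells. GIP was at 58.4 and 47.8 CPM in alpha-like and 17.5 and 23.0 CPM in beta-like cells. CGA, the glycoprotein hormone alpha subunit of thyroid-stimulating hormone, was at 35.2 and 10.5 CPM in beta-like and 38.1 and 48.3 CPM in alpha-like cells. The beta subunit gene TSHB had 1 and 0 UMIs, and GPHB5, of the other known TSHR ligand thyrostimulin, had none in either library, while its partner GPHA2 was at 4.43 and 3.63 CPM in progenitor-like cells. NPY had 6 and 63 UMIs. GCG (0.03), GIP (-0.01), INS (-0.04), SST (-0.44), PYY (-0.22) and GPHA2 (-0.27) stayed within a log2 ratio of 0.5.

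Few signalling genes around the receptors passed a log2 ratio of 0.5 between the libraries. Of all genes compared only 0.874% were higher and 1.12% lower past that ratio, so few passing is no trait of these lists. Of the genes of prostaglandin E2 synthesis and breakdown 4 were compared and none passed; the enzyme HPGD, which inactivates prostaglandins, was at -0.49, the exporter ABCC4 at -0.08 and the synthase PTGES2 at -0.05. Over all cells, PTGS1, PTGS2 and PTGES were each under 0.1 CPM, which does not speak for single classes. Of 31 sister receptors 7 were compared and none passed (PTGER2 -0.33, SCTR -0.26, GPBAR1 -0.13). None of 9 Gs and cyclase genes passed (GNAL 0.49, ADCY7 -0.19, ADCY8 0.18), nor any of 5 Gi/o genes (GNAZ -0.09, GNAI1 -0.08, GNAO1 0.05), 5 Gq genes (PLCB3 -0.24, GNAQ -0.05, GNA11 -0.05) or 17 genes of cyclic AMP effectors and breakdown (PDE1C -0.48, RAPGEF4 -0.29, PDE3B -0.14). Among 10 genes of receptor desensitisation 1 was higher (background 0.874%), the G protein regulator RGS16 (0.50), with RGS4 at -0.42 and RGS2 at -0.39. Of 8 heat-shock genes 2 were lower (background 1.12%), HSPA1A and HSPA1B, with DNAJB1 at -0.34. List medians ran from -0.13 for the ligands to 0.03 for desensitisation, beside -0.01 over all genes.

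Pearson correlations of log2(CPM + 1) were taken over 22 points, 11 finer clusters in each library, which share their libraries and include several clusters of one class. The genes most like TSHR were NXPH4 (r = 0.99), ARPP21 and GSG1, those most like NPY1R were ARHGAP24 (0.98), NTRK3 and HDAC9, and those most like SSTR1 were MGLL (0.98), SLITRK1 and NTRK3. SSTR2 was most like SIK3 (0.96), ELL and DENND4A, ADRA2A like ETS2 (0.89), CRISPLD1 and COLCA1, and GLP1R like EBF1 (0.91), EPHA5-AS1 and SYTL1. FFAR1 was most like RP11-788H18.1 (0.92), GZMB and RAP1B, GIPR like GBA2, CACNA1H and ZNF154 (each 0.90), PTGER3 like ACSL3 (0.84), POMGNT1 and BMP5, and GCGR like TMEM196 (0.73), SRRM4 and SLC39A5. Among the receptors themselves, the values were 0.96 between NPY1R and TSHR, 0.95 between SSTR1 and TSHR and 0.92 between NPY1R and SSTR1. The most negative values were -0.61 between FFAR1 and NPY1R, -0.58 between GCGR and PTGER3 and -0.57 between FFAR1 and TSHR. NXPH4, ARPP21, MGLL and EBF1 were among the markers used to name the classes.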

How the data were processed

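The authors deposited whole-number UMI counts per gene and barcode for 2 libraries, 1 per condition. The matrix header names Cell Ranger 3.0.2, and the submitters' processing notes list Cell Ranger 3.0, kallisto, bustools 0.40.0, Scanpy, Seurat and GRCh38. Groups were taken from the labels. Barcodes with under 1000 UMIs and doublets called by Scrublet were removed (scanpy 1.11.5). Counts were scaled to 10000 and logged, total UMIs and mitochondrial share were regressed out, and 50 principal components with 3 neighbours per library entered Leiden clustering at resolutions 0.2 and 0.5 (leidenalg 0.10.2), after the study's methods. The 10 receptors were left out of the 2293 variable genes, of which 9 were receptors. Classes were named from marker lists of 12 to 14 genes. Levels are summed UMIs per 1000000. Exact 95% intervals (scipy 1.17.1) were Poisson for levels, conditional binomial for ratios and Clopper-Pearson for shares. Genes with at least 1 CPM in 1 library were compared between libraries. A receptor passed between libraries at a log2 ratio of 0.5 and between classes at 2-fold in both libraries. Neighbouring classes are called not apart where their intervals overlapped. The text names all 10 receptors, the ligands with at least 1 CPM in 1 class, the 3 genes of each other list with the largest ratio and the 3 genes most like each receptor (at least 5 CPM). The members and lists were chosen with earlier results of these data known. The interval scripts were tested on simulated data. Intervals cover counting error only, since cultures were not replicated. Protein sequences and the PTGER3 promoter were not used here.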

Additional observations from a re-analysis of the deposited data

Results flagged for a closer look

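With 1 library per condition, the differences between classes below were not tested. Each rests on intervals for counting error that lie on opposite sides of 0, and directions are those of the library labels. These intervals take every UMI as independent, so they do not cover the clumping of UMIs in a few cells. SSTR1 stood at a log2 ratio of DOX over no DOX of 0.13 in beta cell progenitor-like cells and 1.68 in duct-like cells (7 and 27 UMIs), and at -0.41 in proliferating progenitor-like cells. No SSTR1 UMI was found in 147 of 153 and 163 of 178 duct-like cells. With the DOX label 5 duct-like cells had 2 or more, up to 7 in a cell. For NPY1R, 142 of 153 and 149 of 178 duct-like cells had none. SSTR2 stood at 0.26 in delta-like cells, and at -0.24 in alpha-like and -0.28 in proliferating progenitor-like cells. NPY1R stood at 0.051 in beta cell progenitor-like cells and 1.32 in duct-like cells (15 and 45 UMIs), and at -0.19 in beta-like and -0.30 in proliferating progenitor-like cells. Without the DOX label, the levels of all 3 receptors in duct-like cells did not exceed the limit for free RNA beyond counting error, nor did NPY1R in beta-like cells of either library, so the NPY1R ratio in beta-like cells rests on levels that could not be told from free RNA. With the DOX label, SSTR1 (8.85 CPM, limit 3.58) and NPY1R (14.7 CPM, limit 3.83) in duct-like cells exceeded this limit, which rests on INS alone. TPH1, a marker of the progenitor-like class, differed the same way in duct-like cells, at 57.6 and 149 CPM (log2 1.37, 1.10 to 1.65). The part of free RNA or mixed cells in these duct-like ratios was not tested.

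GIPR was counted in the unnamed shallow cluster, which no comparison between classes used, at 30.1 CPM (84 UMIs) without and 30.7 CPM (94 UMIs) with the DOX label. Per 1000000 UMIs that were not mitochondrial, its level there was 67.9 and 62.5, above the 30.8 and 27.0 of progenitor-like cells on the same scale.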

How the results depend on the processing

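The PTGER3 log2 ratio between libraries kept its direction and stayed past 0.5 in 9 of 9 alternatives, from -1.25 with means over cells to -0.96 with every named class weighted equally. With classes weighted equally SSTR1 (0.055) and NPY1R (0.037) turned positive, and with 15 unbalanced neighbours NPY1R in beta-like cells turned to 0.032. Receptors higher between libraries numbered 1 with no minimum beyond the deposited barcodes and with doublets kept. List genes numbered 1 higher with doublets kept and without hormone and mitochondrial genes, against 2 in the report (3 lower). With no minimum level 7 were higher and 15 lower, 5 and 12 of them under 1 CPM, and 12.9% and 11.9% of all genes passed in these directions. Receptors higher in beta-like cells numbered 2 with doublets kept, without hormone and mitochondrial genes and at a log2 ratio of 0.5. Finer clusters depended most on the clustering, in alternatives chosen after seeing the data. In Beta-1-type cells the higher count was 2 with no minimum of UMIs and 0 with doublets kept or with the receptors clustered on, and the lower count was 6 with cells over 20% mitochondrial UMIs left out. There SSTR1 in the library labelled no DOX turned to 0.087 (no minimum) and 0.23 (doublets kept), TSHR to 0.52 and 0.31 (doublets kept) and 0.093 and 0.056 (receptors clustered on), and ADRA2A in the library labelled DOX to -0.096 (mitochondrial limit). In the CA2 and PHOX2A cluster the higher count was 1 with a minimum of 2000 UMIs, no minimum, the mitochondrial limit, shared barcodes left out and Leiden seed 1, and that seed gave 1 lower. With doublets kept, no value was had for that cluster. The causes were not tested. No paired analysis was possible because each condition was 1 library, and for the same reason no replicate could be left out. GCGR, with 333 and 444 UMIs, and duct-like cells rest on few counts.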

Other observations

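Related receptors outside the 10 also differed between classes, given here as values over both libraries with no test and named after their values were seen. Of the prostaglandin E2 receptors, PTGER4, which couples to Gs, was at 9.76 CPM in alpha-like cells, the class where PTGER3 was highest, and at 0.716 CPM in beta-like and 0.275 CPM in progenitor-like cells. PTGER2, also a Gs receptor, was at 14.2 CPM in delta-like, 5.51 CPM in beta-like and 0.659 CPM in alpha-like cells. Over the 4 endocrine classes PTGER1 lay between 0.815 CPM in alpha-like and 1.42 CPM in delta-like cells. SSTR3 was highest in progenitor-like cells (26.7 CPM, against 15.8 CPM in beta-like and 8.87 CPM in alpha-like cells), the class where SSTR1 and SSTR2 were highest. The short-chain fatty acid receptor FFAR2 was at 58.6 CPM in progenitor-like, 25.6 CPM in beta-like and 18.1 CPM in alpha-like cells, an order that differed from that of FFAR1. The bile acid receptor GPBAR1 was at 79.4 CPM in progenitor-like and 70.3 CPM in beta-like cells, and the secretin receptor SCTR at 30.1 CPM in duct-like cells.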
